A study of Mus musculus with 27 samples.

Results

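The core circadian clock genes were followed through injury and repair of the mouse lacrimal gland, the gland that secretes the aqueous part of the tear film. They are 10 genes chosen by name, with earlier results of these data known, from the 43346 genes of the expression table. The activator arm has 4 (Arntl, Npas2, Clock and Nfil3) and the repressor and output arm 6 (Per2, Per3, Nr1d1, Nr1d2, Dbp and Ciart). The arms group genes by time of peak and not by function, as Nfil3 encodes a repressor of transcription and Dbp an activator. All 10 had values in every library and passed the filter on low values that left 13762 genes for testing. RNA-Seq was done on whole glands of wild-type female BALB/c mice, 1 mouse to a library and 3 mice in each of 9 groups. Day 0 glands were uninjured. Other glands received 1 µg of IL-1α by injection and were taken daily through day 5 and again on days 7 and 14, and 1 group received saline and was taken on day 14. IL-1α is an inflammatory cytokine whose injection gives an acute and reversible injury, and saline has only a day 14 group, so the injection itself has no control on the earlier days. Age was 8 to 10 weeks by the sample labels, and the study's methods give an older range.

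The mammalian clock is a feedback loop of transcription that runs in nearly every tissue. A dimer of ARNTL (also called BMAL1) with CLOCK or its relative NPAS2 binds E-box elements and switches on the Per and Cry genes, Nr1d1, Nr1d2, Dbp and Ciart, whose products then act back on the dimer or on the transcription of its genes. In mouse tissues the transcripts of Arntl, Npas2, Clock and Nfil3 therefore peak at about the opposite time of day to those of Nr1d1, Dbp and the Per genes, so that a low activator arm together with a high repressor arm is also what a change in the time of day produces.

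Clock proteins act on the genes of the loop through short DNA elements, and the stretches upstream of Per3 and Ciart are shown because they carry repeated copies. RefSeq start sites of build GRCm38.p6 gave windows of 250 bases before the start for 9 of the 10 members (not Per2). They were searched on both strands for the E-box CACGTG, the D-box TTANGTAA, which DBP and NFIL3 bind with opposite effect, and the half-sites TAGGTCA and TGGGTCA, which the NR1D repressors bind. The capitals mark the matches, and each stretch runs 5′ to 3′ on the minus strand, Per3 at chr4:151044666-151044915 and Ciart at chr3:95882252-95882478, which stops 23 bases before the RefSeq start, where the GENCODE gene begins.
Per3: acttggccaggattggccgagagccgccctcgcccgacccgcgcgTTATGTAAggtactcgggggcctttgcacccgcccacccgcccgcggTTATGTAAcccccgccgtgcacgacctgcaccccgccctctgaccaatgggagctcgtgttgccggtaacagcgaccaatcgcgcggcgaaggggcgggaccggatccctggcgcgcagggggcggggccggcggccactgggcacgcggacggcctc
Ciart: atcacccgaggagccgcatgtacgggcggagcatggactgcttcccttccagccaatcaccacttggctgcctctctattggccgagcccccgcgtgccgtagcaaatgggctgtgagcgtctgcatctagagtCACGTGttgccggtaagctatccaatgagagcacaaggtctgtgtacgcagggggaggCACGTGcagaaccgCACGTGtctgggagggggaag
Per3 had D-boxes that began 205 and 158 bases before its start, and 0.07% of the 32851 windows of all genes held at least 2. Ciart had E-boxes that began 116, 58 and 44 bases before its start, and 0.061% of windows held at least 3. Nfil3 had 1 NR1D half-site 12 bases before its RefSeq start, against 5.38% of windows with at least 1. No match was found in the windows of Arntl, Npas2, Clock, Nr1d1, Nr1d2 or Dbp, which says only that these letters are not in these 250 bases.

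Values are estimated counts normalized between libraries, called normalized expression here, and depth was 9.5 to 13.1 M estimated counts a library. The tests used 23 libraries. They leave out mouse 3 of day 2, mouse 1 of day 4 and mouse 1 of day 7. Mouse 2 of day 7 has no values, so day 7 has 1 library. The 10 lacrimal acinar genes were all above 0 in every group. The summed level of 8 salivary-type genes ran from 58.5 to 1742462 among the 3 day 3 libraries. Normalized totals were 7.19 to 7.31 M on day 1 and 14.86 to 20.13 M on day 0, and scaling to equal totals instead raised the median gene by 1.18 on day 1, 0.91 on day 2 and 0.69 on day 3 on the log2 scale. Fold changes below follow the deposited scaling, under which the median of all genes was 0.03 or less. In whole glands, fewer cells of a type and less RNA per cell cannot be told apart.

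On days 1, 2 and 3 after IL-1α the members that were called split by arm. Clock was not called on these days. Of the 6 repressor and output genes 3 were not called on days 1 and 2, and 4 were not on day 3. Per1, a clock gene outside the 10 members, was called lower on day 1. Arntl, Npas2 and Nfil3 fell on all 3 days, Per2 and Per3 rose on all 3 days, and Dbp rose on days 1 and 2. On days 4 and 5 no activator gene was called, and Per2 was the only member that was. A gene was called where limma's adjusted p was 0.05 or less and the change on the log2(value + 1) scale reached 2-fold. Against day 0 this called 3 members higher and 3 lower on day 1, when 11.3% of all tested genes were called higher and 5.09% lower. On day 2 it called 3 higher and 3 lower, against 11% and 1.14% of all genes. On day 3 it called 2 higher and 3 lower, against 2.57% and 0.574%. Day 4 and day 5 had 1 member called higher each, against 6.97% and 9.8% of all genes. All these comparisons share the 3 day 0 libraries. The members were chosen with earlier results of these data known, so their counts beside the shares of all genes, here and below, are a description.

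**Figure D1:**
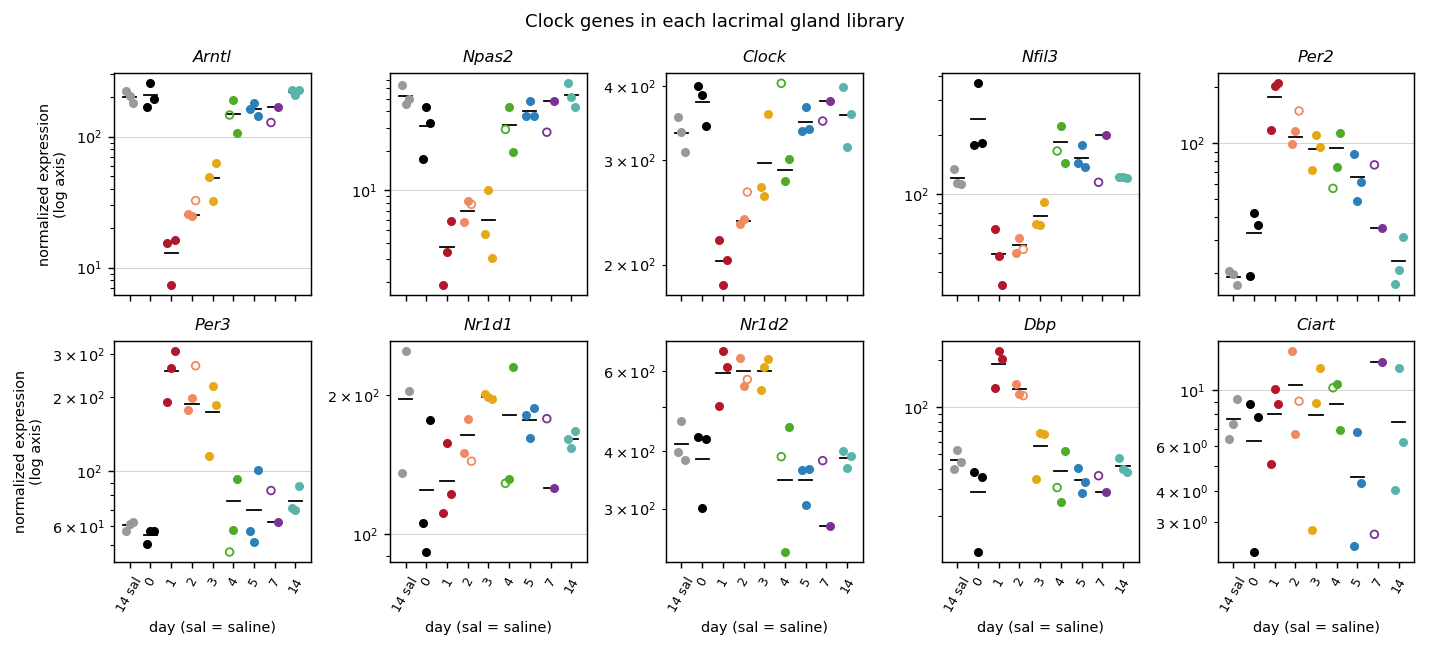
Normalized expression (log axis) of the 10 clock genes in each of 26 libraries by day after IL-1α, with saline at day 14 and day 0 at the left; lines are means of the libraries in the tests and open circles are the 3 libraries left out. Arntl lies at 7.41 to 63.2 on days 1 to 3 and at 107 to 255 in every other group's tested libraries, while Per2, Per3 and Dbp are highest on day 1.

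Arntl (chr7:113207465-113314126, plus strand, GRCm38), the partner that both CLOCK and NPAS2 need, had the largest change of any member. Its values were 168, 255 and 195 in the day 0 glands, 15.3, 7.41 and 16.2 on day 1, 25.7 and 25.0 on day 2, 49.2, 32.2 and 63.2 on day 3, 189.8 and 107 on day 4, and 161, 181 and 144 on day 5. In the tested libraries the ranges of days 1, 2 and 3 followed one another upwards without overlap and all lay below day 0. Those of days 4 and 5 overlapped day 0. Relative to day 0 Arntl was 15.3-fold lower on day 1 (log2 -3.94 ± 0.26 SE, limma adjusted p = 3.51e-10). It was 7.74-fold lower on day 2 (log2 -2.95 ± 0.29, limma adjusted p = 2.64e-07) and 4.30-fold lower on day 3 (log2 -2.10 ± 0.26, limma adjusted p = 4.22e-05). The day 2 library outside the tests had 32.5, also below every day 0 library. It was just above mouse 2 of day 3 (32.2), so with it days 2 and 3 overlapped.

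Npas2 (chr1:39193731-39363236, plus strand), the CLOCK relative that can take its place in the dimer, moved in the same days. It had 17.5, 43.4 and 32.5 in day 0 glands, 1.91, 3.37 and 5.89 on day 1, 5.71 and 8.34 on day 2, 4.65, 10.0 and 3.06 on day 3, and 43.2 and 19.8 on day 4. Days 1 to 3 lay below every day 0 library and overlapped each other, and day 4 lay within the day 0 range. The fall against day 0 was 6.81-fold on day 1 (log2 -2.77 ± 0.39, limma adjusted p = 7.76e-06), 3.82-fold on day 2 (limma adjusted p = 0.0021) and 4.78-fold on day 3 (limma adjusted p = 0.00147). Npas2 had 3 to 56 estimated counts a library over all groups, and only 3 to 10 in the tested libraries of days 1 to 3. On day 3 the call was lost when only the groups compared were fitted (limma adjusted p = 0.0753).

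Nfil3 (chr13:52967209-52981073, minus strand) encodes E4BP4, a repressor at D-boxes that immune cells also use. Its levels were 179, 367 and 182 on day 0, 66.2, 48.5 and 34.6 on day 1, 50.0 and 60.1 on day 2, 70.6, 70.0 and 90.8 on day 3, and 223 and 144 on day 4. All libraries of days 1 to 3 were below day 0, and mouse 2 of day 0 stood well above the other day 0 mice. The log2 fold change was -2.23 ± 0.24 on day 1 (limma adjusted p = 2.36e-07), -2.04 ± 0.27 on day 2 (limma adjusted p = 9.62e-06) and -1.57 ± 0.24 on day 3 (limma adjusted p = 0.000471). The day 3 call was lost against day 14 saline glands (log2 -0.65, limma adjusted p = 0.12) and with scaling to equal totals, where it was under 2-fold (log2 -0.88). Day 14 IL-1α glands had 122, 122 and 121 and day 14 saline glands 135, 114 and 113, both below every day 0 library and under 2-fold from it (log2 -0.91 and -0.92).

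Clock (chr5:76209868-76304792, minus strand), whose product pairs with ARNTL in the dimer, moved least in its arm and was not called. It had 220.2, 185 and 204 on day 1 against 400.0, 386 and 342 on day 0, without overlap, a log2 difference of -0.89 ± 0.11 that had a limma adjusted p of 2.36e-06 and was under 2-fold. With libraries scaled to equal totals the value for Clock on day 1 was 0.29, below the median gene's 1.18 but above 0. Its day 2 difference was log2 -0.67 ± 0.13 and its day 3 difference -0.35 ± 0.11, again under 2-fold.

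Per2 (chr1:91415982-91459324, minus strand), a repressor of the ARNTL dimer, was the only member called against day 0 after day 3. It had 19.3, 42.3 and 36.4 in day 0 glands, 117, 202 and 209.9 on day 1, 98.5 and 116 on day 2, 71.5, 111 and 95.9 on day 3, 74.1 and 114 on day 4, and 87.5, 48.8 and 61.9 on day 5. Every library of days 1 to 5 was above every day 0 library. The rise was 5.35-fold on day 1 (log2 2.42 ± 0.29, limma adjusted p = 1.06e-06), 3.37-fold on day 2 (limma adjusted p = 0.000385), 2.88-fold on day 3 (limma adjusted p = 0.00303), 2.90-fold on day 4 (limma adjusted p = 0.0032) and 2.04-fold on day 5 (limma adjusted p = 0.013). The day 4 call did not hold without mouse 3 of day 4 (log2 1.23, limma adjusted p = 0.063). The day 5 call did not hold without mouse 1 of day 5 (log2 0.80) or mouse 1 of day 0 (log2 0.70). On days 4 and 5 Per2 was 1 of 10 members called higher, near the 6.97% and 9.8% of all genes.

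Per3 (chr4:151003652-151044665, minus strand), the Per paralog that is not required for the rhythm in mice, rose on days 1 to 3 and stopped there. It had 50.9, 57.2 and 57.2 on day 0, 191, 264 and 310.0 on day 1, 178 and 199 on day 2, 115, 222 and 187 on day 3, 57.9 and 93.3 on day 4, and 57.0, 51.4 and 101 on day 5. The 3 early days lay at or above 115 and day 0 at or below 57.2. The rise was 4.48-fold on day 1 (log2 2.16 ± 0.25, limma adjusted p = 4.57e-07), 3.38-fold on day 2 (limma adjusted p = 6.33e-05) and 3.03-fold on day 3 (limma adjusted p = 0.000471). On day 4 the log2 difference from day 0 was 0.41 ± 0.28 (limma adjusted p = 0.318).

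Dbp (chr7:45705088-45710203, plus strand), an activator at D-boxes and a direct output of the loop, had the largest rise. It had 38.3, 11.8 and 35.6 on day 0, 133, 229 and 202 on day 1, 140.5 and 121 on day 2, 34.7, 68.1 and 66.7 on day 3, and 24.8 and 52.5 on day 4. Days 1 and 2 were clear of day 0, and on day 3 mouse 1 lay inside the day 0 range. Dbp was 6.98-fold higher on day 1 (log2 2.80 ± 0.35, limma adjusted p = 1.68e-06) and 4.98-fold higher on day 2 (log2 2.32 ± 0.39, limma adjusted p = 0.000151). On day 3 it was not called (log2 1.06 ± 0.35, limma adjusted p = 0.0631).

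The NR1D receptors, which repress Arntl and Npas2 and are themselves switched on through E-boxes, were not called on any day. Nr1d1 (chr11:98767932-98775333, minus strand) had 111, 158 and 122 on day 1 against 106, 91.6 and 177 on day 0, overlapping, with a log2 difference of 0.10 ± 0.23 (95% interval -0.37 to 0.58, limma adjusted p = 0.747). On day 3 it had 201, 198 and 196, each above day 0, a difference under 2-fold (log2 0.72 ± 0.23, limma adjusted p = 0.0502). Nr1d2 (chr14:18204054-18239127, minus strand) had 503, 665 and 613 on day 1 against 429.9, 301 and 426 on day 0, without overlap, and its log2 difference was 0.63 ± 0.17 (limma adjusted p = 0.00588), under 2-fold. It was 0.65 above day 0 on the log2 scale on day 2 and on day 3 (limma adjusted p = 0.0149 and 0.024). With scaling to equal totals Nr1d1 and Nr1d2 were 1.28 and 1.81 above day 0 on day 1, against 1.18 for the median gene. Ciart (chr3:95878503-95882251, minus strand), a repressor of the ARNTL dimer also called Chrono, had 5.09, 10.1 and 8.84 on day 1 against 8.77, 2.29 and 7.80 on day 0, and at 2 to 20 estimated counts a library no difference was detectable (log2 0.41 ± 0.53, 95% interval -0.70 to 1.52).

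On day 1, 4 members were above and 4 below day 0 without overlap between libraries, when 26.7% and 24.4% of all tested genes were. The same counts on day 2 were 4 and 4, against 28.3% and 25.2%, and on day 3 they were 4 and 3, against 12% and 10.3%. On days 1 and 2 about as many genes as not were separated from day 0 in this way, so the absence of overlap says little about a member on those days.

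**Figure D2:**
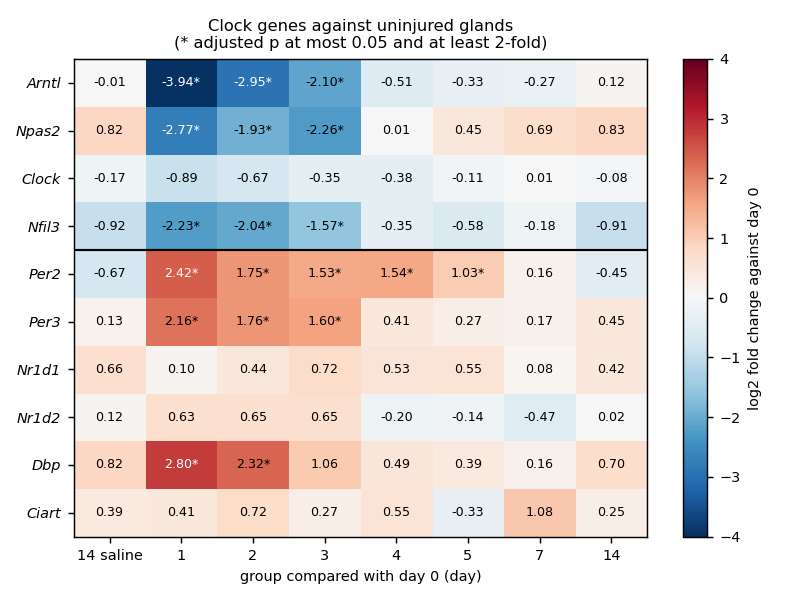
Log2 fold change of each clock gene (rows, activator arm above the line) in each group against day 0 (columns, the first being saline at day 14), coloured from -4 to 4, with stars for a limma adjusted p of at most 0.05 and at least 2-fold. Stars fill 3 of 4 activator rows on days 1 to 3 and only the Per2 row on days 4 and 5, and none stand in the day 7, day 14 and saline columns.

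Between neighbouring groups, day 4 against day 3 had the most members called, 4, and the steps differed between members. Arntl climbed by 0.99, 0.85 and 1.60 on the log2 scale from day 1 to 2, 2 to 3 and 3 to 4, while Per2 differed by 0.01 and Dbp by -0.57 between day 4 and day 3. Day 4 glands had 189.8 and 107 of Arntl against 49.2, 32.2 and 63.2 in day 3 glands, a rise of 3.02-fold (log2 1.60 ± 0.29, limma adjusted p = 0.00464). Npas2 was 4.80-fold higher on day 4 than on day 3 (log2 2.26 ± 0.44, limma adjusted p = 0.00746) and Nfil3 2.32-fold higher (log2 1.22 ± 0.27, limma adjusted p = 0.019). Per3 fell by 1.19 ± 0.28 on the log2 scale (limma adjusted p = 0.0239), and Nr1d2 was 0.85 lower with no overlap but under 2-fold. These 4 calls compare with 1.01% of all tested genes called higher and 0.291% lower between these days. Day 4 has 2 libraries in the tests, and none of the 4 was called without mouse 2 of day 4 (limma adjusted p = 0.162 for Arntl) or with only the 2 groups in the fit. Without mouse 1 of day 3 Nfil3 was not called, and without mouse 2 or mouse 3 of day 3 Per3 was not. All 4 were called with the libraries outside the tests put back, and mouse 1 of day 4 among them had 146 of Arntl, 29.2 of Npas2, 166 of Nfil3 and 47.0 of Per3, each on the day 4 side of every day 3 library.

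The output gene Dbp was called lower from day 2 to day 3, and Per2 from day 5 to day 14. The Per2 mean had already gone from 176 on day 1 to 107 on day 2 without a call, so these calls do not order the genes in time. Dbp had 34.7, 68.1 and 66.7 on day 3 against 140.5 and 121 on day 2, a fall of 2.39-fold (log2 -1.26 ± 0.39, limma adjusted p = 0.0347), when 5.81% of all genes were called lower. This call did not hold without mouse 1 of day 2, mouse 2 of day 2 or mouse 1 of day 3. Per2 had 17.4, 20.7 and 31.2 on day 14 against 87.5, 48.8 and 61.9 on day 5, a fall of 2.78-fold (log2 -1.48 ± 0.29, limma adjusted p = 0.00179), when 5.8% of all genes were called lower. Between day 2 and day 1 no member was called by limma, against 2.65% of all genes, and Arntl had the only unadjusted p under 0.05 (log2 0.99 ± 0.29, just under 2-fold). It passed 2-fold, and 1 member was called, without mouse 1 or mouse 3 of day 1. Between day 5 and day 4 no member was called and none had an unadjusted p under 0.05, and the share of all genes called was also 0%.

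On day 14, 9 of the 10 members overlapped between IL-1α and saline glands. Arntl had 228, 206 and 228 in IL-1α glands on day 14 against 222, 205 and 179.6 in saline glands, and Per2 had 17.4, 20.7 and 31.2 against 20.4, 19.7 and 17.3. Both pairs of ranges overlapped. Per3 did not overlap, with 71.0, 69.5 and 87.3 in IL-1α glands against 57.5, 61.4 and 62.2 in saline glands, as 4.49% of all genes were higher without overlap, and its log2 difference was 0.32 ± 0.25. No member was called between these groups by limma and none had an unadjusted p under 0.05, and 0% of all genes were called. The 95% interval of the log2 difference was -0.41 to 0.66 for Arntl and -0.85 to 0.62 for Dbp, so differences within those bounds were not excluded. Against day 0, no member was called on day 7, on day 14 or in saline glands, where 0.189%, 1.66% and 0.959% of all genes were. An unadjusted p under 0.05 was reached by 0 members on day 7, by Npas2 and Nfil3 on day 14, and by 5 members in saline glands. Npas2 had 43.6 to 65.6 in day 14 IL-1α glands and 45.4 to 63.9 in saline glands, above its 17.5 to 43.4 on day 0.

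Taking each arm as the mean log2(value + 1) of its members, the difference between the activator and the repressor arm had opposite signs on days 1 to 3 and in the other groups, although the sign on day 4 depended on the arm's members. It was 1.63 ± 0.68 (SD, n = 3) in day 0 glands, -2.25 ± 0.45 (n = 3) on day 1, -1.54 on average over the 2 tested libraries of day 2, -0.92 ± 0.32 (n = 3) on day 3, 0.76 on average over 2 libraries on day 4, 1.18 ± 0.27 (n = 3) on day 5 and 1.39 ± 0.24 (n = 3) on day 14. Saline glands had 1.31 ± 0.28 (n = 3) and the day 7 library 1.49. With Nfil3 and Clock taken out of the activator arm the mean was -2.48 on day 3, -0.13 on day 4 and 0.67 on day 0, so day 4 then fell on the side of the early days. With the libraries outside the tests included, the difference lay between -2.70 and -0.55 in all 9 libraries of days 1 to 3 and between 0.17 and 2.41 in all 17 others. These are a description without a test, since the split by day was drawn after the values were seen. On day 4, mouse 3 had the smallest difference above 0, with 107 of Arntl, 93.3 of Per3 and 52.5 of Dbp, while mouse 2 had 189.8, 57.9 and 24.8 of the same genes.

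**Figure D3:**
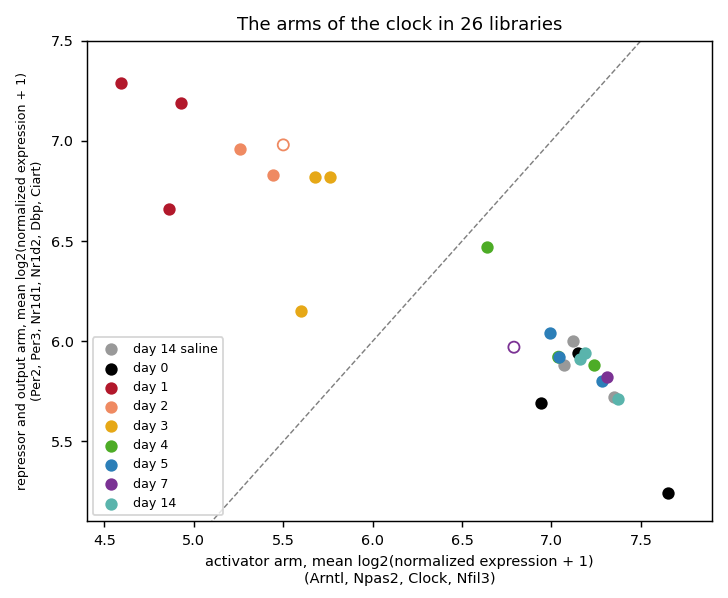
Mean log2(normalized expression + 1) of the repressor and output arm against that of the activator arm in 26 libraries, coloured by group, with open circles for the 3 libraries left out of the tests and a dashed line where the arms are equal. The 9 libraries of days 1 to 3 lie above the line, at 4.59 to 5.76 on the activator axis, and the other 17 lie below it, at 6.64 to 7.65; without Nfil3 and Clock the day 4 mean changes side, at -0.13.

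Among mice of one group, where the day is the same, some members differed against Arntl and others did not. The 26 libraries with values, those left out of the tests among them, gave 25 pairs within a group. Dbp differed in the opposite direction to Arntl, or tied, in 19 of these pairs, Nr1d1 in 17 and Nr1d2 in 16. Nfil3 went with Arntl in 18 pairs, Clock in 17 and Npas2 in 15. Per2, a repressor, also went with Arntl in 15 pairs, Ciart did in 12 and Per3 in 11. The last 2, at 48.0% and 44.0% of pairs, lay at or near the 48.0% of the median tested gene. Mouse 2 of day 0 had the most Arntl (255), Npas2 (43.4) and Nfil3 (367) of the uninjured glands. It had the least Dbp (11.8), Nr1d1 (91.6), Nr1d2 (301) and Ciart (2.29) of them. Against that split, it also had the most Per2 (42.3). Its Per3 (57.2) was level with mouse 3, and its Clock (386) lay between the other mice. Pairs within a group share libraries, so these counts are a description. The hour at which each gland was taken is given neither in the labels nor in the methods, nor is the date, so the hour of harvest and the injury cannot be told apart as sources of the day 1 to 3 pattern.

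Markers of immune cells rose in the same days and are given beside the arms. Of the 10 neutrophil markers 7 were tested and 6 rose on day 1, and of the 10 monocyte and macrophage markers 8 rose. Lactoferrin (Ltf), which lacrimal acini secrete, made up most of the neutrophil list's sum of 8279.8 to 8509 on day 0, so the list was also summed without it, a choice made after seeing the data. Without Ltf the neutrophil sum was 1.75 to 6.50 in day 0 glands, with Retnlg, Mmp8, Ly6g, Ngp and Camp at 0, 1883 to 2406 on day 1, 685 to 866 on day 2, 53.4 to 76.5 on day 3, 45.7 to 89.6 on day 4 and 43.7 to 203 on day 5. The monocyte and macrophage sum was 905 to 1567 on day 0, 3458 to 4759 on day 1, 7101 to 7758 on day 2, 2545 to 2593 on day 3, 3492 to 4752 on day 4 and 2795 to 4705 on day 5. Day 4 glands overlapped day 3 glands in neutrophil markers. Their monocyte and macrophage sum was higher (median log2 difference of the list 0.69), with 0 of the 10 markers called. The arm difference was 0.17 to 1.36 on day 4 against -1.15 to -0.55 on day 3, and the part of immune cells in it was not tested. The summed acinar genes were 1157111 to 1329824 on day 4 against 1103540.1 to 1494909.5 on day 3 and also overlapped. Fibroblast markers moved in the same step, with 3 of 8 called higher on day 4 than on day 3 (median log2 0.98) and a sum of 15556 to 18818 on day 4 against 3544 to 7621 on day 3. The fibroblast sum was 18701 to 27764 on day 5 and 4708 to 5713 on day 0, and its part in the day 4 values of the clock genes was not tested. Of 8 skeletal muscle markers 7 were called higher on day 2, with a sum of 2628 to 3039 against 13.0 to 672 on day 0. High sums were not confined to day 2. In day 14 IL-1α glands the sum ran from 67 to 2596, with 1 of 8 markers called higher than on day 0. The part of the muscle markers in the values of the clock genes was not tested either. On day 1 the acinar genes were 839517 to 920333 against 2109789.7 to 3047843 on day 0, and their part in the day 1 values of the clock genes was not tested. Mouse 2 of day 3, the library with 1742462 of salivary-type genes, had 32.2 of Arntl and 222 of Per3, the lowest and the highest of its day, and all 5 day 3 calls held without it.

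**Figure D4:**
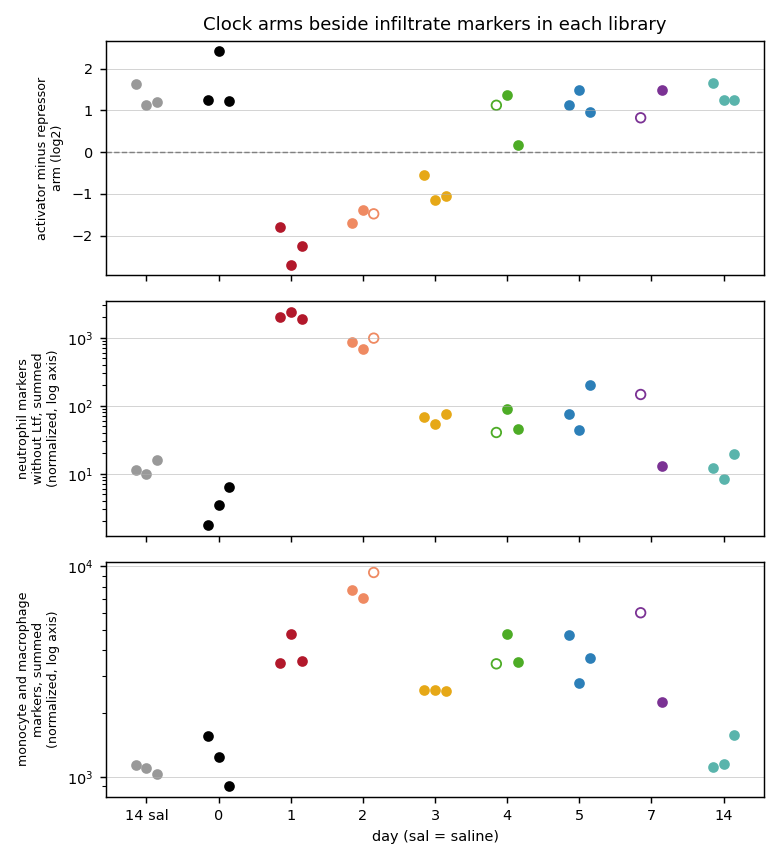
Activator minus repressor arm (log2, top), summed neutrophil markers without Ltf (middle, log axis) and summed monocyte and macrophage markers (bottom, log axis) in each of 26 libraries by day, with saline at day 14 and day 0 at the left and open circles for the libraries left out of the tests. Day 3 lies below 0 in the top panel and day 4 above it (mean -0.13 on day 4 without Nfil3 and Clock in the arm). The neutrophil sums of these days overlap, and the part of immune cells was not tested.

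Other genes of the clock gave a mixed picture. Of 9 further transcription factors and repressors of the loop 8 were tested (not Rorb), and against day 0 on day 1 Bhlhe40 was called higher and Per1 lower, with a median log2 of 0.07 against 0.03 for all genes. Bhlhe40, which encodes the repressor DEC1, had 239, 283 and 188 on day 1 against 14.0, 33.2 and 33.8 on day 0, an 8.97-fold rise (log2 3.16 ± 0.44, limma adjusted p = 5.98e-06). It was still called on day 2 (log2 2.32 ± 0.49) and on day 3 (log2 1.58 ± 0.44, limma adjusted p = 0.0287), where mouse 1 fell within the day 0 range. Tef, a D-box activator related to Dbp, had 671, 889.6 and 946 on day 1 against 411, 404 and 490.1 on day 0, a difference just under 2-fold (log2 0.93 ± 0.15, limma adjusted p = 5.22e-05), and it was 0.99 and 0.80 above day 0 on days 2 and 3.

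Per1 did not follow Per2 and Per3. Per1, the paralog that glucocorticoids and other acute signals also induce, had 82.1, 113 and 98.7 on day 1 against 133, 496 and 479.7 on day 0, a fall of 3.24-fold (log2 -1.69 ± 0.44, limma adjusted p = 0.00364). It was at 239.8 and 388 on day 2, 262, 238 and 166 on day 3 and 354 and 266 on day 4, none of them called. It was called lower again on day 5, at 169, 95 and 120.3 (log2 -1.34 ± 0.44, limma adjusted p = 0.0272), and was at 65.6, 87.7 and 141 on day 14 and at 74.1, 46.7 and 172 in saline glands, where it was called lower than day 0 in both (log2 -1.75 and -1.90, limma adjusted p = 0.0227 and 0.0248). Mouse 1 of day 0 had 133, inside the range of the day 14 groups, and inside that of day 5, so the uninjured glands were themselves far apart. Cry1, a repressor of the dimer that peaks late in the cycle, had 47.1 and 56.7 on day 2 against 82.5, 115 and 93.6 on day 0 (log2 -0.88 ± 0.20, limma adjusted p = 0.00233), under 2-fold.

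**Figure D5:**
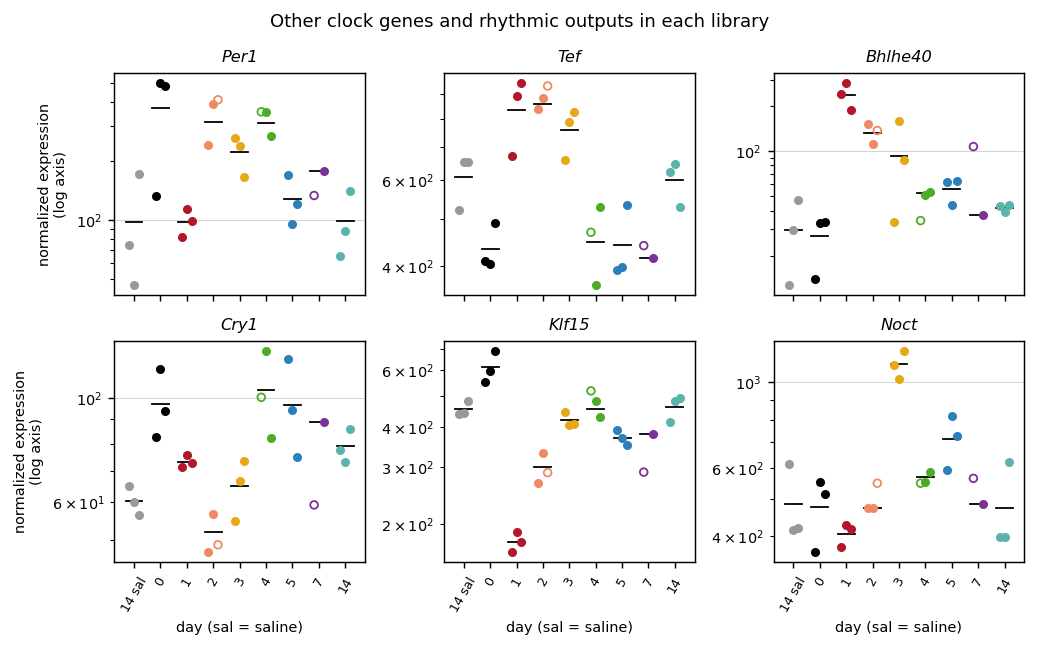
Normalized expression (log axis) of Per1, Tef, Bhlhe40, Cry1, Klf15 and Noct in 26 libraries by day, drawn as in the plot of the 10 members. Tef and Bhlhe40 are high on days 1 to 3, Cry1 is at 47.1 and 56.7 in the tested libraries of day 2, Klf15 is lowest on day 1 and Noct stands at 1019 to 1205 on day 3.

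The machinery that acts on clock proteins changed little at the RNA level. Of 10 kinases, phosphatase subunits and ubiquitin ligase subunits, all tested, Csnk1e, a kinase of the PER proteins, was the only one called against day 0, on day 1 (log2 1.03 ± 0.27, limma adjusted p = 0.00388). Csnk1e had 96.7, 106 and 92 on day 1 against 24.6, 65.2 and 66.3 on day 0, where mouse 1 was far below the others. Of 10 genes that are rhythmic in many mouse tissues, Tspan4 and Klf10 rose and Klf15, Ppara and Tsc22d3 fell on day 1, with a list median of -0.04 against 0.03 for all genes. Klf15, a factor that controls amino acid and glucose metabolism, had 164, 189 and 176 on day 1 against 551, 595 and 690.3 on day 0 (log2 -1.79 ± 0.10, limma adjusted p = 7.39e-11) and 269 and 333 on day 2. Noct, a circadian NADP(H) phosphatase also called nocturnin, was called higher on day 3 alone among the days, with 1107, 1019 and 1205 against 364, 551 and 513 on day 0 (log2 1.24 ± 0.18, limma adjusted p = 0.000198). Of 12 genes that glucocorticoids induce, Per1 among them, 3 were called higher and 5 lower on day 1. On day 14, 5 were called lower in IL-1α glands and 4 in saline glands, both against day 0, when 1.66% and 0.959% of all genes were called. The list's median log2 difference between IL-1α and saline glands was 0.02.

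Over the 23 tested libraries the genes outside the 10 members whose levels were most like the mean of the activator arm were Gsn (Pearson r = 0.93, Spearman rho = 0.77), Xrra1 (0.93 and 0.74), Mansc1 (0.91 and 0.79), Slc1a4 (0.91 and 0.85) and Lnx2 (0.91 and 0.82). Gsn, an actin-severing protein, averaged 1207 on day 1 against 3356 on day 0. The gene most like the mean of the repressor arm was Tef (0.86 and 0.87), followed by Osbpl11 (0.83 and 0.79), Camkk2 (0.83 and 0.78), Klhl5 (0.82 and 0.78) and Acat2 (0.82 and 0.70). These are descriptions across libraries that share their groups and totals. Bhlhe40 ranked 8 for the repressor arm with r = 0.79, and Per1 had r = -0.04 with it.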

How the data were processed

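The authors made stranded mRNA libraries from whole glands, aligned reads with STAR to build mm10, estimated counts with RSEM and normalized with DESeq2, whose versions are not given in the sources used here. The deposited signal values are the authors' estimated counts divided by 1 factor per library, and only 77.1 to 83.1% of the low values came within 0.02 of a whole multiple of the library's step, so whole reads were not recovered and no count test was run. Values of 43346 genes in 26 libraries were read, and 42462 identifiers were named from GENCODE M21.

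The limma package (3.58.1, R 4.3.3) was used on log2(value + 1), each group having its own mean, for the 13762 genes at 10 or more in at least 2 of 23 libraries, with Benjamini-Hochberg adjustment over all of them. Residual degrees of freedom were 14, and day 7, with 1 library, borrowed its spread from the other groups. Mouse 3 of day 2, mouse 1 of day 4 and mouse 1 of day 7 were left out of the tests because the authors left them out. In simulated data 98.5 to 100% of 4-fold and 51 to 51.5% of 2-fold changes were called on days 1 and 3. The 2-fold changes lay on the threshold itself. Changes were placed only in genes with higher day 0 levels than Npas2, Per2, Dbp and Ciart had, so these rates do not cover those members. P-values measure the spread between mice. Members and lists were chosen with earlier results of these data known. Named are all 10 members, called genes of the other lists (up to 4 a list by size, with those of opposite direction), and the 5 genes most like each arm. Tef, Cry1 and the genes called on few days were added after their values were seen. One gene of the lists is not reported here. Alternatives were the libraries left out, a pseudocount of 0.1, no filter, mouse number as a block, fits of 2 groups alone, scaling to equal totals, adjusted p alone, saline as the control, leaving out each library and other arm members. Added after seeing the data was a fit without day 3. No column belonged to another series.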

Additional observations from a re-analysis of the deposited data

Results flagged for a closer look

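Several members differed between days after IL-1α by a test of the difference itself. Day 4 against day 3 gave a log2 fold change of 1.60 for Arntl, 2.26 for Npas2, 1.22 for Nfil3 and -1.19 for Per3. Dbp on day 3 against day 2 gave -1.26, and Per2 on day 14 against day 5 gave -1.48.

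The 3 libraries left out of the tests also held values above the highest day 0 library. Mouse 3 of day 2 had 149 of Per2 against at most 42.3 on day 0, 269 of Per3 against 57.2, 575 of Nr1d2 against 429.9, 118 of Dbp against 38.3 and 9.03 of Ciart against 8.77. Mouse 1 of day 4 had 404 of Clock against at most 400.0, 57.1 of Per2 against 42.3 and 10.2 of Ciart against 8.77. Mouse 1 of day 7 had 76.4 of Per2 against at most 42.3, 83.6 of Per3 against 57.2 and 178 of Nr1d1 against 177. The margins for Ciart, Clock and Nr1d1 are small beside the spread of the day 0 mice.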

How the results depend on the processing

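The 25 called fold changes of members kept their direction in all 347 alternative values. Of these, the 25 for adjusted p alone repeat the main fit. All 25 kept their call with all 26 libraries and with a pseudocount of 0.1. Adjusted p alone only drops the fold threshold, so it cannot end a call. Fitting only the 2 groups compared ended 5 calls, dropping the filter 3, scaling to equal totals 1, saline as the control 1 of 19, and leaving out 1 library 13 of 138. Without the day 3 libraries all 15 calls held.

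The count of members called on day 4 against day 0 was 1, and it was 4 with scaling to equal totals, 2 by adjusted p alone and 0 to 1 when 1 library was left out. On day 5 it was 1, against 5 with equal totals and 0 to 1 with 1 library left out. On day 14 and in saline glands it was 0, against 1 in each by adjusted p alone and 0 to 1 with 1 library left out, the 1 being without mouse 3 of day 0 in both and also without mouse 1 of day 0 on day 14. Day 2 against day 1 had 0, and 1 with all libraries, with a pseudocount of 0.1 and by adjusted p alone, and 0 to 1 with 1 library left out. Day 3 against day 2 had 1, against 0 with no filter, 2 by adjusted p alone and 0 to 2 with 1 library left out. Day 4 against day 3 had 4, against 2 with no filter, 0 with only the 2 groups compared and 0 to 5 with 1 library left out. On days 1, 2 and 3 the counts were 6, 6 and 5, and 9, 9 and 7 with equal totals. Without Nfil3 and Clock in the activator arm the arm difference was 0.67 on day 0, -4.10, -3.04 and -2.48 on days 1, 2 and 3, -0.13 on day 4, 0.44 on day 5, 0.68 on day 7, 0.91 on day 14 and 0.84 in saline glands, so day 4 changed sign. The cause was not tested in any of these.

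Mouse numbers did not pair the libraries: deviations of same-numbered mice correlated at -0.34 to 0.30 (median 0) and those of other mice at -0.30 to 0.34. With the replicate number as a block 6, 6 and 5 members were called on days 1, 2 and 3, and all 25 calls held. Depth limits Npas2 and Ciart most.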
